A study of Mus musculus with 12 samples.

Results

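Guanylate binding proteins (GBPs) are large GTPases that macrophages make in quantity after exposure to interferons. They gather on vacuoles and membranes that hold microbes, and several of them act upstream of inflammasomes, the protein assemblies that activate inflammatory caspases. Interferons switch the genes on through Janus kinases at their receptors and transcription factors of the STAT and IRF families. The members were taken by gene symbol under a rule that uses no measured value, though earlier results of these data were known when they were chosen. They are Gbp2, Gbp3, Gbp4, Gbp5, Gbp6, Gbp7, Gbp8 and Gbp9, which are 8 of the 54232 genes in the count table. All 8 passed the filter on low counts and were among the 16281 genes tested.

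The RNA came from bone marrow derived macrophages (BMDMs) of C57BL/6 wild-type mice that had been cultured for 5 days. Without R788, the cells were left without tumor-conditioned medium (NS, libraries SJ1 and SJ2), or received it for 24 h from the MYCN-amplified neuroblastoma line NB9464 (NB9464 TCM, SJ3 and SJ4) or from the NBT3L line without MYCN amplification (NBT3L TCM, SJ5 and SJ6). With 500 nM R788, a prodrug whose active form inhibits the kinase Syk, the corresponding groups were R788 (SJ7 and SJ8), NB9464 TCM + R788 (SJ9 and SJ10) and NBT3L TCM + R788 (SJ11 and SJ12). Each line is a single source of medium, per the methods the NB9464 medium was collected without serum, and what the NS cells received in its place is not given in the sources used here. The labels do not say whether the 2 libraries of a group came from separate mice or cultures, so p-values measure only the spread between these libraries, which may be technical.

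Library totals ran from 44977847 to 56449685 counts, and 16149 to 18343 genes had a count, the fewest in SJ8. All 7 macrophage markers examined (Adgre1, Csf1r, Cd68, Itgam, Lyz2, Mertk and Fcgr1) were detected in every library. Markers of other cell types had a summed level of 0.235 to 3.72 TPM (a level per length, scaled to the library) for T and NK cells, with Ncr1 at 0, 0 to 1.24 for B cells, 0.284 to 0.964 for dendritic cells and 6.68 to 18.4 for fibroblasts. The sum for T and NK cells was 1.29 to 1.38 TPM in NS, 1.904 to 3.72 in R788 and at most 0.861 with TCM, and the groups with and without R788 overlapped in each TCM. Most of this sum without TCM was Cd4, at 0.874 and 1.21 TPM in NS and 1.57 and 2.72 in R788. Cd3e, Cd3d, Cd8a, Nkg7 and Klrb1c were each at most 0.312 TPM in any library, and Trac reached 0.933 in SJ8. The sum for fibroblasts was higher with R788 in every medium, at 14.4 to 18.4 TPM against 7.13 to 8.87 without TCM, 10.12 to 12.03 against 6.68 to 8.92 in NB9464 TCM and 14.48 to 16.03 against 9.34 to 9.62 in NBT3L TCM. Col1a1 was the largest part of it. Pdgfrb went the other way without TCM, at 1.87 and 1.34 TPM in NS against 0.878 and 1.01 in R788. With R788 Pdgfrb was higher in NB9464 TCM, and the groups overlapped in NBT3L TCM. Neutrophil markers summed to 282 to 440.4 TPM in the libraries without TCM, where NS and R788 overlapped. They summed to 651 to 742 with TCM and to 533 to 562 with TCM and R788. The higher sum with TCM was S100a8 alone, at 108 and 124 TPM in NS and 451 to 563 with TCM and no R788. S100a9 was lower there, at 179 to 220 TPM against 293 and 312 in NS. Mpo and Elane were lower too, and Ly6g was at most 0.253 TPM in any library. Of the 7 neuroblastoma markers, Th and Chga had no count in any library, and the 7 summed to 0 TPM in NS, at most 0.059 in R788 and 0.449 to 1.35 in the libraries with TCM. Bulk RNA cannot tell fewer cells of a type from less RNA per cell, and the part of these cells in the results below was not tested.

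The members lie in 2 clusters. On chromosome 3 (GRCm38, plus strand) are Gbp5 at chr3:142493978-142522344, Gbp7 at chr3:142530342-142550149, Gbp3 at chr3:142560026-142573209 and Gbp2 at chr3:142620602-142638008. On chromosome 5 (minus strand) are Gbp8 at chr5:105014150-105139540, Gbp9 at chr5:105077630-105139539, Gbp4 at chr5:105115767-105139586 and Gbp6 at chr5:105270702-105293698. All 8 are annotated as protein coding, and the gene lengths in the table equal the union of their exons. Near-identical sequence limits how reads can be assigned: 64.5% of the distinct 100-base stretches of Gbp6 transcripts also occur in another gene, mostly Gm43302 and Gbp10, so its values are uncertain. The share was 10.01% for Gbp7, 4.39% for Gbp8 and at most 1.65% for each of the other members. Gm43302 had no count in any library and Gbp10 had at most 3 counts in a library. The annotated first exons of Gbp4, Gbp8 and Gbp9 also share 60 to 61 bases, and 24 exon bases of Gbp2 lie opposite Mir6381.

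The 250 bases before the RefSeq start site (GRCm38.p6) were read for the members that have an entry, which are the 4 genes of the chromosome 3 cluster. They are shown because all 4 genes fell with R788 averaged over the media and their best known inducers act through 2 short motifs: the interferon-stimulated response element (ISRE, searched on both strands as a GAAA, any 2 bases and a second GAAA) and the gamma-activated sequence (GAS, searched as TTCNNNGAA with N any base, which reads alike on both strands). An ISRE match was found in all 4 genes, whereas 2.98% of 32851 promoter windows of this length hold one. Gbp5 and Gbp7 each also had 2 GAS matches, a motif held by 7.02% of the windows, and 0.332% of windows hold both motifs. In Gbp3, 2 overlapping ISRE matches lie in the first of its 2 RefSeq windows, and the second window holds neither motif. The stretches below are on the plus strand, without bases that the gene annotation places in an exon, except for Gbp2, where an exon of another annotated transcript covers the match and 30 bases around it are given. Capitals mark the matches, which are letters in a window and not evidence of binding.
Gbp5 (chr3:142496684-142496899): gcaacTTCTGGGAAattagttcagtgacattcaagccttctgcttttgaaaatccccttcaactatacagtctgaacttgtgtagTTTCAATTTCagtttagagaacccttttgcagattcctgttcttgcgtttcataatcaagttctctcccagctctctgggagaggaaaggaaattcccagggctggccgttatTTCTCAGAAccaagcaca
Gbp7 (chr3:142530086-142530335): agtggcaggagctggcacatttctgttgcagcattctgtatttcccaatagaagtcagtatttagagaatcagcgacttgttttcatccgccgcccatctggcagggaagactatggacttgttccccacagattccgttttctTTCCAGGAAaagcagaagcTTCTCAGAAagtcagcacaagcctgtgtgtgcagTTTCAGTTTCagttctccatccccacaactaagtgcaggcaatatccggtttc
Gbp3 (chr3:142559794-142560025): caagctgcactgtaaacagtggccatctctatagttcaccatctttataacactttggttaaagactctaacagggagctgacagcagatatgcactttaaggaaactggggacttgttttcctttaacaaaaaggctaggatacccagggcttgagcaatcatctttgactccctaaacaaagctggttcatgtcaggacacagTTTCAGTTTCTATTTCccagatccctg
Gbp2 (chr3:142620594-142620623): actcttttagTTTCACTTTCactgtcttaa

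By level per length, the family was led by Gbp2, Gbp3 and Gbp9 in NS cells. Summed over the 8 members, the level was 92.5 ± 0.79 TPM (SD, n = 2) in NS, 66.2 ± 2.35 in NBT3L TCM and 40.6 ± 0.57 in NB9464 TCM. With R788 it was 43.9 ± 5.23 TPM without TCM, 20.5 ± 0.18 in NBT3L TCM and 16.4 ± 0.76 in NB9464 TCM, so that both libraries with R788 lay below both libraries without it in each medium. TPM is scaled to the library total and not like the normalized counts of the tests, so the media can compare differently by each. In TPM Gbp2 overlapped between NS (32.1 and 37.3) and NBT3L TCM (34.7 and 39.2), whereas its normalized counts did not. On normalized counts, the log2 fold change with NBT3L TCM was 0.10 ± 0.09 for the summed chromosome 3 cluster and -1.32 ± 0.19 for chromosome 5. The make-up of the family differed too. Gbp2 supplied 37.5% ± 3.65 of the summed TPM in NS, 64.0% ± 11.9 in NB9464 TCM + R788 and 63.9% ± 1.09 in NBT3L TCM + R788. Gbp9 supplied 19.9% ± 2.85 in NS and 23.0% ± 0.027 in R788, but 5.44% to 7.01% (group means) in the 4 groups with TCM. Gbp4, Gbp5, Gbp6 and Gbp8 were minor parts, and the highest share of any of them in a library was the 5.44% of Gbp6 in NBT3L TCM + R788.

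**Figure D1:**
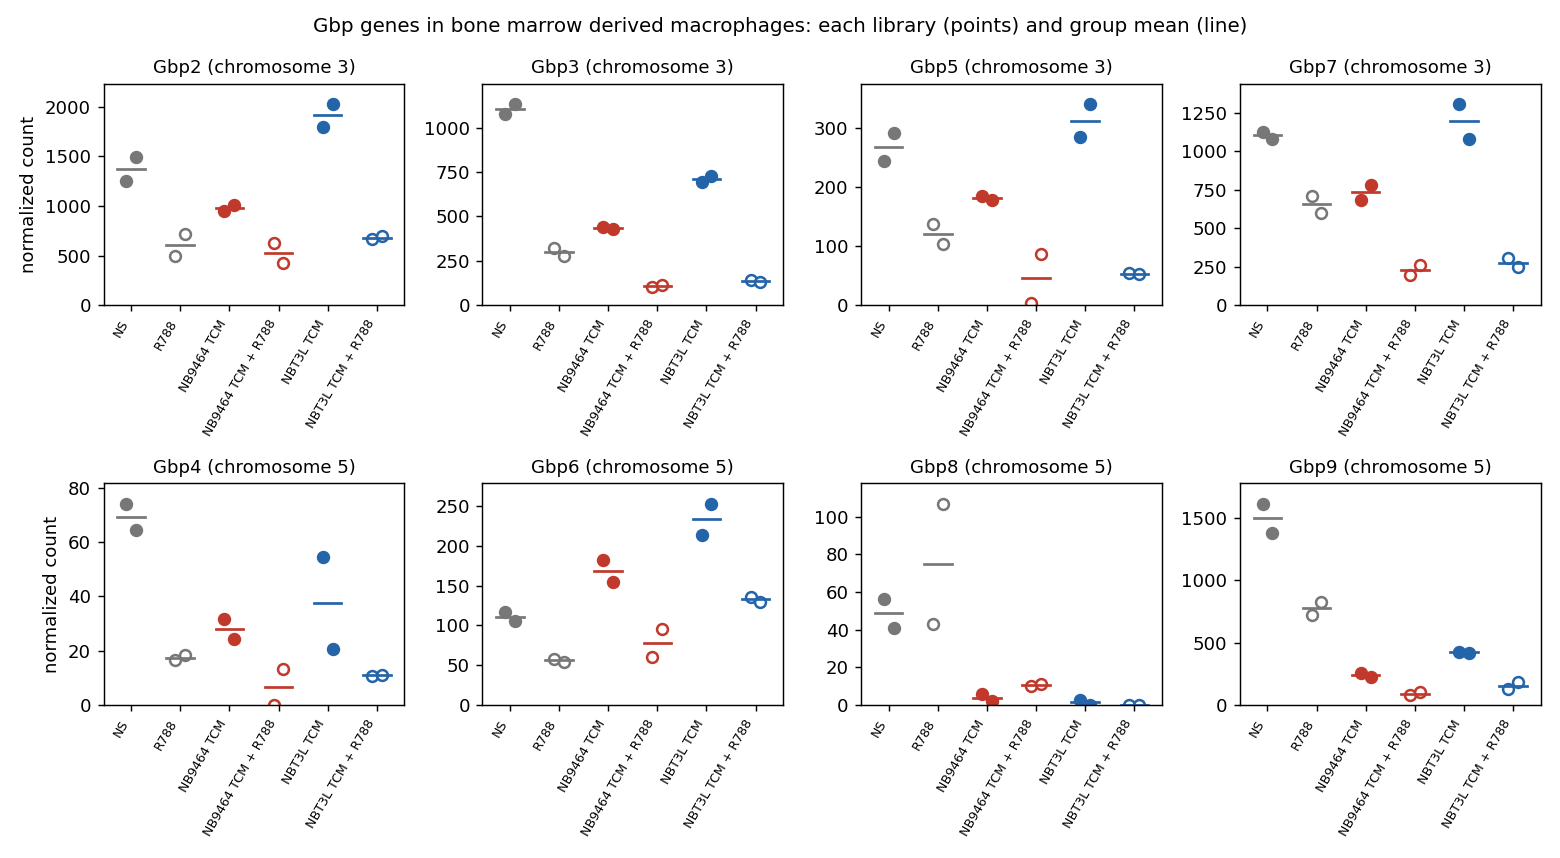
Normalized count (vertical axis, linear, from 0, a separate range for each gene) of the 8 Gbp genes in the 6 groups (horizontal axis). Each point is 1 library, filled without R788 and open with it, and each line is the mean of the 2 libraries. For Gbp2, Gbp3, Gbp4, Gbp5, Gbp6, Gbp7 and Gbp9 the open points lie below the filled points of the same medium, and Gbp8 is at most 11.1 in every library with TCM.

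R788 was associated with lower levels of nearly the whole family. Averaged over the 3 media, 7 of the 8 members fell (DESeq2 Wald test on the counts, called where the Benjamini-Hochberg adjusted p over all tested genes is below 0.05), and the 8 log2 fold changes had a median of -1.39, beside a median of -0.01 over all tested genes. Among all tested genes 16.2% fell and 29.6% changed in either direction. In all 3 media 7 members were lower with R788 without overlap of the libraries, which held for 9.31% of all tested genes. The 4 members that fell by the test in each of the media were Gbp2, Gbp3, Gbp7 and Gbp9, and 3.59% of all tested genes did so. The number of members called was 4 of 8 in NBT3L TCM, 5 in NB9464 TCM and 5 in cells without TCM, all of them lower, where 7.24%, 8.7% and 15% of tested genes were called lower. Leaving out SJ8 and SJ9 together, as an alternative chosen after seeing the data, gave 5, 5 and 5.

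Gbp3, of the cluster that mice need for defence against the parasite Toxoplasma, had the lowest averaged log2 fold change of the 8 in the fit over all libraries (-2.10 ± 0.11). Its normalized counts were 1077 and 1136 in NS against 322 and 279 in R788. In NB9464 TCM they were 442 and 432, against 99.5 and 116 with R788. In NBT3L TCM they were 697 and 726, against 142 and 132 with R788. The log2 fold change was -2.38 ± 0.20 (SE) in NBT3L TCM, -2.03 ± 0.20 in NB9464 TCM and -1.88 ± 0.18 in cells without TCM, with adjusted p of 1.42e-31, 2.52e-21 and 1.53e-23. No library of a group overlapped with its R788 counterpart.

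Gbp2, a prenylated member that coats microbial vacuoles, had the highest level per length in every group. Its normalized counts were 1250.05 and 1498 in NS against 498 and 720.1 in R788, 949.9 and 1007 in NB9464 TCM against 623 and 427 with R788, and 1797 and 2032 in NBT3L TCM against 666 and 694 with R788. The groups did not overlap in any medium. The log2 fold change was -1.17 ± 0.19 without TCM (adjusted p = 2.24e-08), -0.90 ± 0.20 in NB9464 TCM (8.17e-05) and -1.49 ± 0.19 in NBT3L TCM (8.43e-13).

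Gbp7, which is recruited to vacuoles and has been linked to the assembly of the phagocyte oxidase, showed an effect of R788 that differed between media. Without TCM its normalized counts were 1123 and 1082 in NS and 706 and 601 in R788, a log2 fold change of -0.75 ± 0.19 (adjusted p = 0.000344). In NB9464 TCM the counts of 682 and 782 stood against 196 and 263 with R788 (-1.68 ± 0.20, adjusted p = 8.27e-16). In NBT3L TCM the counts of 1308 and 1079 stood against 303 and 247 (-2.12 ± 0.19, adjusted p = 5.91e-26). The fall was thus larger with TCM, and the difference between the effects was tested directly. Relative to the effect without TCM, the effect was stronger by a log2 value of -0.92 ± 0.27 in NB9464 TCM (adjusted p = 0.00700) and -1.36 ± 0.27 in NBT3L TCM (1.24e-05). With all libraries Gbp7 was the only member called in either of these interaction tests, in which 12.5% and 10.1% of all tested genes were called. The NB9464 TCM call was lost when SJ2, SJ4 or SJ9 was left out, with log2 values of -0.89, -0.82 and -0.72 and adjusted p of 0.0549, 0.0562 and 0.0992. No library decided the call in NBT3L TCM. Between the TCMs, no member's R788 effect was called different by DESeq2 or edgeR (0.706% of tested genes by DESeq2), and Gbp2 alone had an unadjusted p below 0.05.

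Gbp9, of the chromosome 5 cluster, had normalized counts of 1615 and 1377 in NS against 723 and 828 in R788 (-0.95 ± 0.20 on the log2 scale, adjusted p = 1.65e-05). Its counts were 255 and 226 in NB9464 TCM against 80.6 and 99.97 with R788 (-1.42 ± 0.23, 3.21e-08), and 425 and 417 in NBT3L TCM against 126 and 181 with R788 (-1.45 ± 0.22, 1.11e-09). The libraries with and without R788 were separate in each medium.

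Gbp6, the member with the most shared sequence, had normalized counts of 116 and 105 in NS and 58.2 and 53.5 in R788. The counts were 183 and 154 in NB9464 TCM and 59.7 and 95.5 with R788, then 214 and 253 in NBT3L TCM and 136 and 129.6 with R788. Every library with R788 was below the libraries of the same medium without it. Averaged over the media Gbp6 fell by 0.98 ± 0.21 on the log2 scale (adjusted p = 1.65e-05). In the fit over all libraries the fall was called without TCM (-0.99 ± 0.36, adjusted p = 0.0249) and in NB9464 TCM (-1.12 ± 0.36, 0.0126), and in NBT3L TCM the value was -0.82 ± 0.35 (0.0959). Neither was called in a fit of only the groups compared (adjusted p = 0.172 and 0.0556), in which the value in NBT3L TCM was called (-0.82, 0.0483). Single libraries decided those calls too. Without TCM the call was lost on leaving out SJ1, SJ2, SJ6, SJ7 or SJ8 (log2 values of -0.92, -1.06, -0.99, -1.05 and -0.93, adjusted p from 0.0528 to 0.154), and in NB9464 TCM on leaving out SJ3, SJ4 or SJ9 (-0.99, -1.24 and -0.82, adjusted p from 0.0534 to 0.260). Adding the counts of Gbp10 and Gm43302 to those of Gbp6 left the averaged value at -0.97. The sum could hardly differ, since Gbp10 had at most 3 counts in a library and Gm43302 had 0. It cannot show how reads of the shared sequence were assigned.

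Gbp5, which promotes assembly of the NLRP3 inflammasome, had normalized counts of 244 and 293 in NS and 138 and 104 in R788. In NBT3L TCM it had 285 and 342, and 54.1 and 52.3 with R788. In NB9464 TCM it had 185 and 178, but 3.98 in SJ9 and 86.6 in SJ10 with R788. The 2 libraries of NB9464 TCM + R788 therefore differed widely for Gbp5, from 4 and 78 raw counts, and the fitted dispersion of 0.449 was set by this gene alone instead of the trend over genes. With it, only the average over media was called (-1.91 ± 0.56, adjusted p = 0.00364), and the values in the single media were -1.15 ± 0.97, -2.01 ± 0.98 and -2.56 ± 0.98 in the order without TCM, NB9464 TCM and NBT3L TCM, with adjusted p of 0.424, 0.155 and 0.0556. EdgeR's quasi-likelihood test called the fall in both TCMs (-2.03 and -2.55, adjusted p = 0.0495 and 0.0157), DESeq2 on counts divided by 2 called it in NBT3L TCM (0.0371), and a fit of only the groups compared called it without TCM (-1.14, 0.00971) and in NBT3L TCM (1.30e-12). The average ran from -1.59 without SJ9 to -3.08 without SJ10 and was called in both. In the single media, leaving out SJ9 gave -1.15 (0.00186), -1.07 (0.0684) and -2.56 (1.69e-12). Without SJ9 the effect in NBT3L TCM also exceeded that without TCM, by -1.41 (adjusted p = 0.0244). Leaving out SJ10 instead gave -1.15 (0.00213), -5.51 (9.77e-10) and -2.56 (2.86e-12), and the effect in NB9464 TCM then exceeded that without TCM by -4.36 (2.61e-05).

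Gbp4 had few counts, with normalized values of 74.2 and 64.5 in NS and 16.4 and 18.4 in R788. It had 31.6 and 24.2 in NB9464 TCM against 0 in SJ9 and 13.3 in SJ10, and 54.5 and 20.6 in NBT3L TCM against 10.6 and 11.1. R788 libraries were the lower ones in every medium, and the average was called (-1.96 ± 0.55, adjusted p = 0.00177). The average ran from -1.62 without SJ9 to -3.68 without SJ10 and was called in both. No single medium reached the threshold with all libraries, but the value without TCM did when SJ9 or SJ10 was left out (-2.00 in both, adjusted p = 0.0332 and 0.0375) or when only NS and R788 were fitted (-1.99, 0.0316), and that in NB9464 TCM did without SJ10 (-7.25, 0.0145), which leaves only the library at 0.

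Gbp8 was the exception. Its normalized counts were 56.4 and 40.8 in NS and 42.7 and 107 in R788, with SJ8 the high library, and the 2 groups overlapped (log2 fold change of 0.63 ± 0.90, adjusted p = 0.678, and -0.19 without SJ8). It had 5.74 and 1.86 in NB9464 TCM against 9.95 and 11.1 with R788, a value of 1.47 ± 1.07 (0.399). In NBT3L TCM the raw counts were 2 and 0, and in NBT3L TCM + R788 both libraries were at 0. No fold is given between those groups, since both lie at or under a floor of 3 counts.

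**Figure D2:**
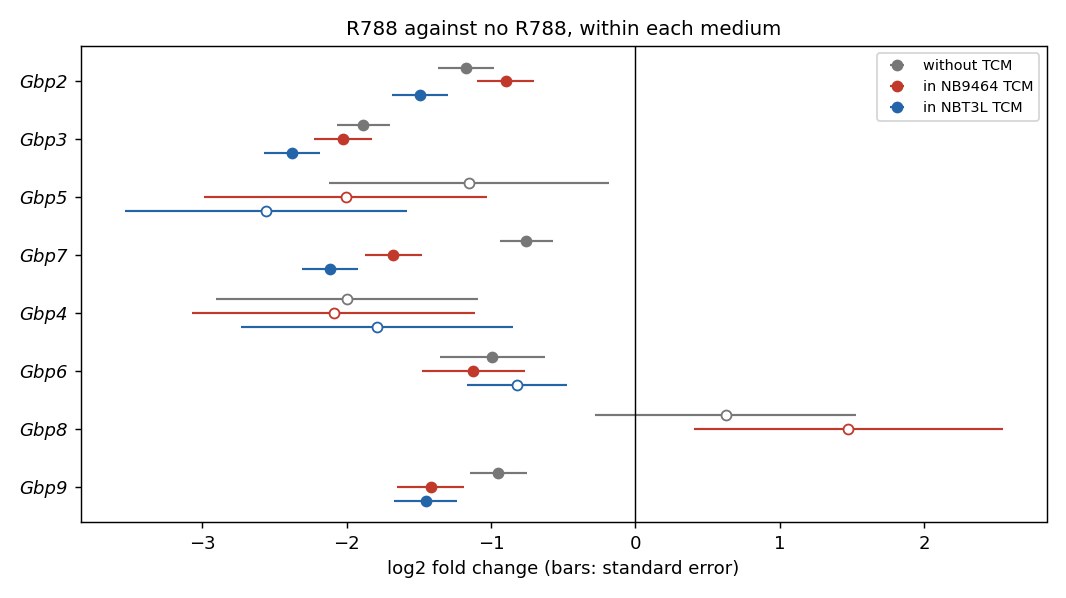
Log2 fold change with R788 against the same medium without it (horizontal axis) for each Gbp gene (vertical axis), in the 3 media (colors). Points are estimates of the fit over all 12 libraries, bars are 1 standard error, and filled points have an adjusted p below 0.05. The values for Gbp2, Gbp3, Gbp7 and Gbp9 are filled in all 3 media, and Gbp8 in NBT3L TCM, with at most 2 counts in a library, is left out.

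Tumor-conditioned medium alone changed the family unevenly. NB9464 TCM lowered 5 of the 8 members against NS and raised none by the test, where 16.9% of all tested genes fell and 17.2% rose. The 5 were Gbp2, Gbp3, Gbp7, Gbp8 and Gbp9. NBT3L TCM lowered 3 (Gbp3, Gbp8 and Gbp9) and raised 2 (Gbp2 and Gbp6), where 17.3% fell and 18% rose. The shares of all genes called were 34.1% and 35.3%. Both comparisons use the same NS libraries, and leaving out SJ8 and SJ9 together kept the count at 5 in each.

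Gbp9 moved the furthest of the well counted members. From 1615 and 1377 normalized counts in NS it was at 255 and 226 in NB9464 TCM, a log2 fold change of -2.64 ± 0.21 (adjusted p = 2.86e-36) or 6.22-fold lower. In NBT3L TCM it was at 425 and 417, a change of -1.83 ± 0.20 (2.19e-18). Gbp3 was also lower, with -1.34 ± 0.18 in NB9464 TCM (8.30e-13) and -0.64 ± 0.18 in NBT3L TCM (0.00139), and the NBT3L call was lost without SJ2 (-0.60, adjusted p = 0.0526). For both genes the NS libraries were above all 4 libraries with TCM.

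Gbp8 was close to 0 under TCM. From raw counts of 60 and 43 in NS it had 6 and 2 in NB9464 TCM, and the ratio of NS to NB9464 TCM after scaling was 12.9 (95% interval 6.30 to 30.7, counting error only). The ratio of NS to NBT3L TCM was 42.1 (11.4 to 352), from 2 counts in NBT3L TCM. Both differences were called (adjusted p = 0.00154 and 0.000330). With R788 present as well, Gbp8 had 47 and 134 raw counts in SJ7 and SJ8 and 0 with NBT3L TCM + R788, so R788 alone was at least 49.7-fold higher, by the floor of 3 counts over the group. Without SJ8 this limit was 27.6. These ratios take each count as an independent event, whereas most low counts in the table were even, as counting both mates of a pair would give. With the counts divided by 2, which like the limit without SJ8 was chosen after seeing the data, the intervals widened to 4.69 to 48.6 and 7.15 to 1678, and the limit was 24.7.

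Gbp2 and Gbp7 depended on the line. Gbp2 was 1250.05 and 1498 in NS, 949.9 and 1007 in NB9464 TCM and 1797 and 2032 in NBT3L TCM, so the groups did not overlap. It was called lower with NB9464 TCM (-0.49 ± 0.19, adjusted p = 0.0339) and higher with NBT3L TCM (0.48 ± 0.19, 0.0363). The NB9464 TCM call was lost without SJ2, SJ3 or SJ4 (-0.36, -0.45 and -0.53, adjusted p = 0.289, 0.157 and 0.0844). The NBT3L TCM call was lost without SJ1, SJ5 or SJ6 (0.35, 0.56 and 0.39, adjusted p = 0.287, 0.0626 and 0.248) and with edgeR's quasi-likelihood test (0.46, adjusted p = 0.0555). Gbp7 was called lower with NB9464 TCM (-0.59 ± 0.19, 0.00567), a call lost without SJ1 (-0.57, adjusted p = 0.0666) or SJ3 (-0.49, 0.0971). With NBT3L TCM its libraries spanned those of NS (0.11 ± 0.18, adjusted p = 0.710).

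Gbp6 went the other way from Gbp8 and Gbp9. It was 116 and 105 in NS, 183 and 154 in NB9464 TCM and 214 and 253 in NBT3L TCM, with no overlap with NS. The rise was called in NBT3L TCM (1.08 ± 0.35, adjusted p = 0.00711), a call lost without SJ2 (1.003, adjusted p = 0.0828) or SJ6 (0.95, 0.120), and the value in NB9464 TCM was 0.60 ± 0.35 (0.188). Gbp4 and Gbp5 were called in neither medium, with log2 values of -1.32 ± 0.90 and -0.57 ± 0.97 in NB9464 TCM and -0.89 ± 0.90 and 0.22 ± 0.97 in NBT3L TCM. The log2 ratio of Gbp6 to Gbp9 gives the contrast within the cluster, and the scaling of a library nearly cancels in it. It was between -3.93 and -3.61 in the 4 libraries without TCM and between -0.98 and 0.10 in the 8 libraries with TCM. In the libraries without TCM, NS and R788 overlapped in this ratio.

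**Figure D3:**
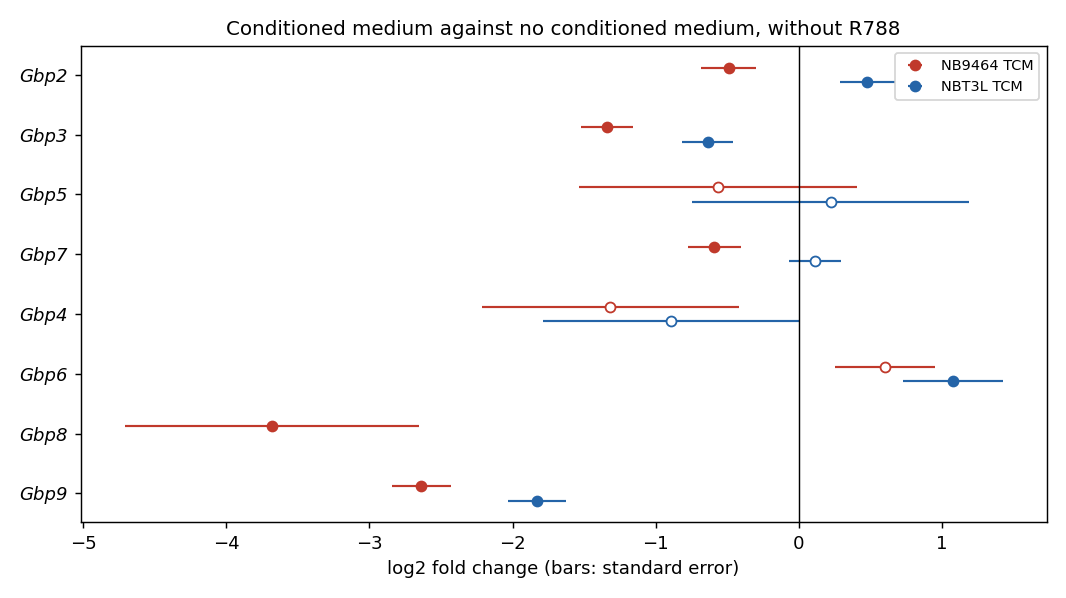
Log2 fold change with NB9464 TCM or NBT3L TCM against NS, without R788 (horizontal axis), for each Gbp gene (vertical axis). Points are estimates, bars are 1 standard error, filled points have an adjusted p below 0.05, and Gbp8 in NBT3L TCM, which rests on 2 counts, is left out. Gbp9 lies at -2.64 and -1.83, Gbp2 on either side of 0, and Gbp6 above 0 with both media.

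Between the TCMs, the members that differed were lower with NB9464. Without R788, 4 of 8 members were called lower in NB9464 TCM than in NBT3L TCM and none higher, where 5.72% and 3.69% of all tested genes were (9.4% in either direction). They were Gbp2 (-0.97 ± 0.19, adjusted p = 1.35e-05), Gbp3 (-0.70 ± 0.18, 0.00165), Gbp7 (-0.70 ± 0.19, 0.00225) and Gbp9 (-0.81 ± 0.21, 0.00199). Gbp2 kept its call in every fit that left out 1 library. Gbp3 lost it without SJ4 (-0.69, adjusted p = 0.0502) or SJ6 (-0.67, 0.0894), Gbp7 without SJ3 (-0.61, 0.104) or SJ5 (-0.56, 0.168), and Gbp9 without SJ4 (-0.72, 0.0677) or SJ5 (-0.79, 0.0512). Gbp5 had a value of -0.79 ± 0.97 and Gbp6 of -0.47 ± 0.34, with adjusted p of 0.713 and 0.449, and DESeq2 gave Gbp4 and Gbp8 no adjusted p here because of their low counts.

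With R788 in both media, 1 member was called lower in NB9464 TCM + R788 than in NBT3L TCM + R788, where 6.09% of tested genes were, and 1 was called higher, where 3.53% were (9.62% in either direction). Gbp9 was the lower one, at 80.6 and 99.97 normalized counts against 126 and 181 (-0.77 ± 0.24, adjusted p = 0.0155), and its call was lost without SJ9 (-0.62, 0.239) or SJ12 (-0.49, 0.432). Gbp8 was the higher one, with 10 raw counts in each library against 0 in both, which puts it at least 6.78-fold higher by the floor of 3 counts over the group (adjusted p = 0.0110), or 3.39-fold with the counts divided by 2. The Gbp8 call was lost without SJ11 or SJ12 (adjusted p = 0.128 and 0.140), and DESeq2 gave no adjusted p without SJ10. In a fit of only these groups 0 members were called. Gbp2 had a value of -0.37 ± 0.20 (0.276) and reached the threshold only without SJ9 (-0.67, 0.0392).

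The clusters were also summed, so that the way reads were divided among the genes of a cluster matters less. The sums include Gbp2b and Gbp2-ps on chromosome 3 and Gbp10 and Gbp11 on chromosome 5, which are not listed members. With R788, averaged over the media, the log2 fold change was -1.47 ± 0.05 for the chromosome 3 sum and -1.12 ± 0.11 for the chromosome 5 sum. With NB9464 TCM it was -0.73 ± 0.09 for chromosome 3 and -1.97 ± 0.19 for chromosome 5 (adjusted p = 3.35e-15 and 2.09e-23). The chromosome 5 sum was mostly Gbp9 in NS, at 1615 and 1377 of 1867 and 1587 normalized counts. Gbp6, in the same sum, was higher in NB9464 TCM without overlap, though not called. With NBT3L TCM the chromosome 5 sum was lower (-1.32 ± 0.19, 4.74e-11), and the chromosome 3 sum was at 0.10 ± 0.09 (0.431). The effect of R788 on the chromosome 3 sum was less negative in NB9464 TCM than in NBT3L TCM, by 0.50 ± 0.13 (adjusted p = 0.0278), a sum that is mostly Gbp2, Gbp3 and Gbp7.

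Over the 12 libraries the members did not share a single profile. Pearson's r between log2 levels was 0.96 for Gbp3 and Gbp7, the highest pair, and -0.71 for Gbp6 and Gbp8, the lowest. The 12 libraries share 6 conditions, so these values are descriptions. The 5 genes most like the mean profile of the members, out of 10709 with mean normalized counts of 100 or more, were Pml (r = 0.984), Mmp13 (0.982), Parp14 (0.980), Trim30a (0.980) and Ddx58 (0.980). Pml encodes the scaffold of nuclear bodies, Mmp13 a collagenase, Parp14 an ADP-ribosyltransferase, Trim30a a TRIM family protein, and Ddx58 the RNA sensor RIG-I.

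The ligands and regulators of the pathway were examined as lists. Ifng, which encodes interferon-gamma, and Ifna4 had no count in any library, which allows up to 3 counts in each. Ifnb1, which encodes interferon-beta, had 8 and 10 raw counts in the NBT3L TCM libraries and 0 in the other 10, and was too low to be tested. Irf1 was at -0.09 ± 0.06 (0.254) with R788 averaged over the media, and fell with NB9464 TCM (-0.71 ± 0.10, 2.32e-12) and NBT3L TCM (-0.29 ± 0.10, 0.00838). Over all tested genes 16.2% fell and 13.4% rose with R788 averaged over the media. Among 9 transcription factors 5 fell in that comparison and none rose, with Irf7 at -2.69 ± 0.04 and Stat2 at -1.30 ± 0.04. Of 9 receptors and kinases 5 rose and 1 fell, and of 5 brakes on the pathway 3 fell, led by Usp18 at -2.50 ± 0.08. Syk itself, the target of the drug's active form, was 1.18 ± 0.05 higher on the log2 scale in NB9464 TCM and 1.32 ± 0.05 in NBT3L TCM than in NS, and 0.27 ± 0.03 higher with R788.

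Other interferon-inducible GTPases were lower with R788 too. Of the 9 tested (Irgm1, Irgm2, Igtp, Iigp1, Tgtp1, Tgtp2, Mx1, Mx2 and Gvin1), 8 fell with R788 averaged over the media, beside 16.2% of all tested genes, with a median log2 fold change of -2.45 for the list beside -1.39 for the Gbp genes. Mx1, an antiviral GTPase, fell by 2.99 ± 0.12 on the log2 scale, Mx2 by 2.58 ± 0.19 and Tgtp2 by 2.45 ± 0.28. Mx1 had 2577 and 2960.3 normalized counts in NS, 348 and 406 in R788, 847 and 619.6 in NB9464 TCM and 75.6 and 59.98 with R788 in that medium. With NB9464 TCM alone 8 of the 9 fell, and with NBT3L TCM alone 6 did, where 16.9% and 17.3% of all tested genes fell. None of the 9 rose in these comparisons.

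**Figure D4:**
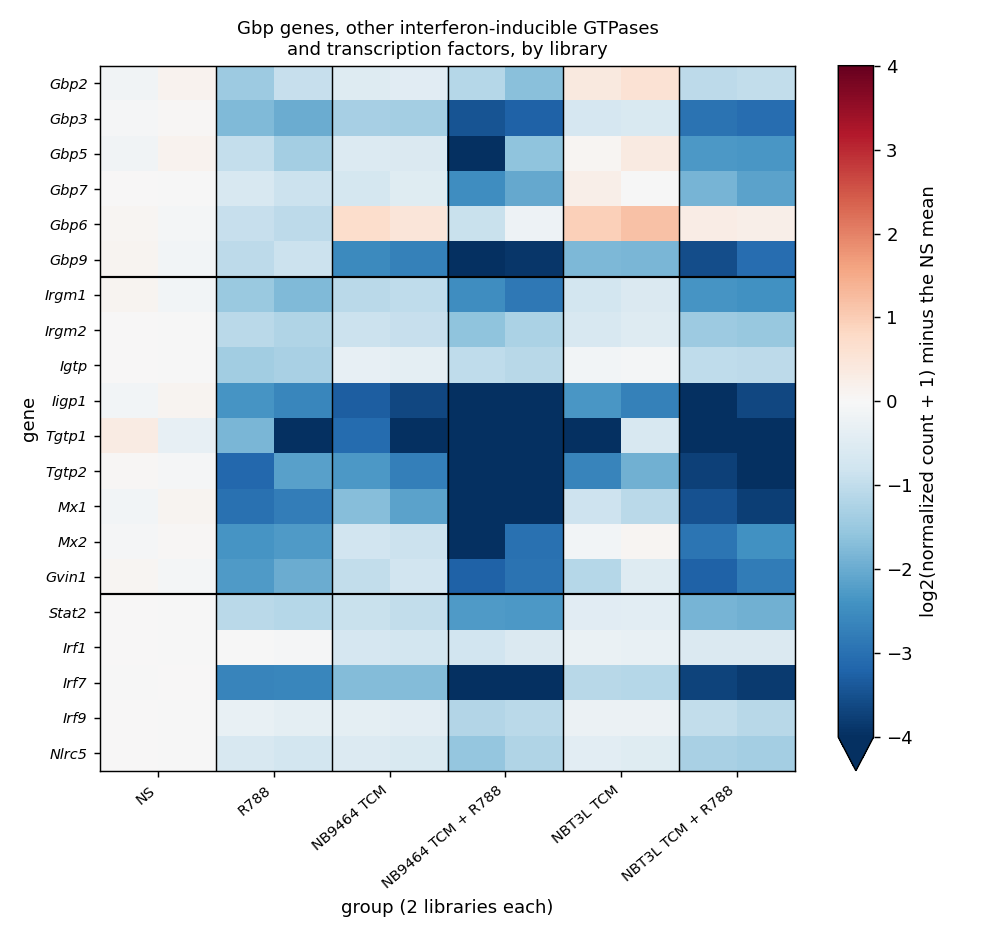
Log2(normalized count + 1) in each library minus the mean of the NS libraries (color, blue lower and red higher, cut off at -4), for 6 Gbp genes, 9 other interferon-inducible GTPases and 5 transcription factors (rows) in the 12 libraries (columns, 2 for each group). The columns with R788 are bluer than those of the same medium without it for most of the GTPases and for Irf7, while Irf1 is near 0 in R788 and Gbp6 is above 0 in all 4 libraries with TCM and no R788.

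Genes on which GBP function depends were examined in the same way. None of the 5 prenylation genes (Fnta, Fntb, Pggt1b, Rce1 and Icmt) was called with R788 averaged over the media, and of 9 genes for recruitment and ubiquitin partners 3 rose and 2 fell, where 13.4% and 16.2% of all tested genes did. Of 8 inflammasome genes 4 fell, among them Il1b (-0.53 ± 0.08), Il18 (-0.39 ± 0.11) and Casp1 (-0.28 ± 0.04). Il1b was lower with R788 only in the TCMs. Without TCM it had 52.6 and 55.0 normalized counts in NS against 65.4 and 60.7 in R788. Of 8 other interferon-gamma targets 7 fell in the same comparison, with Cxcl10 at -2.07 ± 0.17, Fcgr1 at -1.42 ± 0.03 and Nos2 at -1.19 ± 0.11. Nos2, the inducible nitric oxide synthase, rose with NB9464 TCM by 4.66 ± 0.18 and with NBT3L TCM by 4.85 ± 0.18 on the log2 scale, in the same libraries in which Gbp3, Gbp8 and Gbp9 fell. The list as a whole was mixed. With NB9464 TCM 4 of these 8 targets fell and 2 rose, where 16.9% and 17.2% of all tested genes did. With NBT3L TCM 2 fell and 2 rose, where 17.3% and 18% did.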

How the data were processed

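Sequencing of poly(A)-selected RNA was analysed in 12 libraries, 2 in each of 6 groups set by the labels. The deposited table holds raw counts per Ensembl gene made by the authors, whose processing notes name mm10, STAR 2.6.1d, Salmon 1.4.0, SAMtools 1.9, Picard 2.26 and MultiQC 1.11. Their methods describe single reads with 3 replicates, mapped with STAR and quantified with Salmon, whereas the labels give 2 libraries in each group. The use of strand and the treatment of reads matching several genes are not given in the sources used here. Among counts of 1 to 40, 65.2% to 67.9% were even, as counting each mate of a pair would give, so the fit was repeated on counts divided by 2. Gene symbols matched 54079 of 54232 identifiers (GENCODE M21). Genes that reached 10 counts in 2 or more libraries were tested with DESeq2 1.42.0 in 1 fit over all libraries with median-of-ratios scaling, Wald tests, and Benjamini-Hochberg adjustment over all tested genes, and edgeR 4.0.16 (R 4.3.3) served as an alternative. The averaged effect of R788 is the mean of its effects in the 3 media. Levels per length are TPM computed here from the counts and the table's gene lengths, and library totals give the depth. The procedure was tested on simulated data in which all genes shared 1 low dispersion. That test does not cover Gbp4, Gbp5 and Gbp8, whose fitted dispersions were 0.364, 0.449 and 0.376. The named genes were the 8 members, Syk, Ifng, Ifnb1 and Irf1, and from each list at most the 3 largest changes among called genes with a mean of at least 100 normalized counts over the libraries compared. The members and lists were chosen with earlier results of these data known, and some listed genes are not reported here.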

Additional observations from a re-analysis of the deposited data

Results flagged for a closer look

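The effect of R788 on Gbp7 differed between media by a direct test of the difference. Its log2 fold change was -2.12 ± 0.19 (SE) in NBT3L TCM, -1.68 ± 0.20 in NB9464 TCM and -0.75 ± 0.19 in cells without TCM. The difference from the effect without TCM was -0.92 ± 0.27 in NB9464 TCM and -1.36 ± 0.27 in NBT3L TCM (DESeq2 Wald test, adjusted p = 0.00700 and 1.24e-05), and edgeR's quasi-likelihood test gave adjusted p of 0.0239 and 0.00198. All 4 libraries with TCM and R788, at 196 to 303 normalized counts, were below the R788 libraries at 601 and 706. In each of these tests 1 of the 8 members was called, where 12.5% and 10.1% of all tested genes were. The number of members called is thus near the share over all genes. The NB9464 TCM call did not hold without SJ2, SJ4 or SJ9 (-0.89, -0.82 and -0.72, adjusted p = 0.0549, 0.0562 and 0.0992). For Gbp7, 10.01% of 100-base stretches of its transcripts occur in other genes, mostly Gm43802, which had no count in any library.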

How the results depend on the processing

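No paired analysis was possible because the labels give no replicate number to more than 1 group. With 1 library left out the remaining library of its group was assumed to vary like the other groups. The number of members called then ranged from 3 to 5 in NB9464 TCM and in NBT3L TCM against NS, from 4 to 7 with R788 without TCM and in NB9464 TCM, from 4 to 5 in NBT3L TCM, from 2 to 4 between the TCMs, from 0 to 2 between them with R788, and from 0 to 2 and 1 to 2 for the R788 effect in NB9464 TCM and in NBT3L TCM against that without TCM. The averaged R788 effect was called for 7 members under every setting run. In a fit of only the groups compared, 0 members were called between the TCMs with R788 and 2, Gbp5 and Gbp7, for the R788 effect in NBT3L TCM against that without TCM. The cause was not tested.

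Among 418 single-gene values under other tools, scalings and filters none changed direction, 9 gained and 4 lost a call. Among 996 values with a library left out 13 gained and 30 lost a call and 19 changed direction. These totals leave out Gbp8 in the comparisons that use NBT3L TCM + R788, the average included, since it had 0 counts there. Averaged over the media, the R788 effect on Gbp8 ran from -0.54 to 0.68 over the settings. Among the values counted, those that changed direction had these ranges on leaving out a library. Gbp7 ran from -0.031 to 0.25 in NBT3L TCM and Gbp8 from -0.19 to 1.14 in R788, both against NS. Between the TCMs Gbp4 ran from -0.97 to 0.44, and with R788 Gbp4 ran from -5.89 to 0.30 and Gbp5 from -3.74 to 0.70. For the R788 effect in NB9464 TCM against that without TCM the ranges were -0.027 to 0.57 (Gbp2), -5.26 to 0.93 (Gbp4), -4.36 to 0.084 (Gbp5) and -0.51 to 0.17 (Gbp6). In NBT3L TCM against that without TCM Gbp4 ran from -0.33 to 1.07. Between the TCMs the R788 effects ran from -5.46 to 0.72 (Gbp4), -2.95 to 1.49 (Gbp5), -0.68 to 0.00051 (Gbp6) and -0.20 to 0.32 (Gbp9). Depth limits Gbp4 and Gbp8 the most, which had at most 79 and 134 raw counts in a library.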
